A study of Drosophila melanogaster with 12 samples.

Results

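In the developing wing of Drosophila, 229 genes were transcribed at high levels at the L3 larval stage and again at 18 h after puparium formation (APF), and at lower levels at every other stage sampled. They were chosen from the values themselves. Reads of each gene were divided by all reads on genes of the library (CPM, on a common total) and averaged over the 2 libraries of each stage, and both the L3 and the 18 h mean had to reach 5 CPM and be at least 2 times the mean at 6, at 24, at 36 and at 44 h APF. Of 15240 genes in the count tables, 12660 had a count in some library, 6564 reached 5 CPM at both L3 and 18 h, and 239 met the rule. Of these, 10 that are best known as cell cycle genes were set aside by name (aur, cmet, zwilch, CycB, fzy, mad2, ald, polo, Mcm7 and Mcm5), which left the 229. The questions asked were how many of the remainder are known cell cycle genes and what the others do.

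RNAseq was performed on 40 dissected wings for each stage, in 2 replicates per stage and 12 libraries. The stages were wandering larvae of the third instar (L3, although these libraries are titled 0 h APF) and pupal wings at 6, 18, 24, 36 and 44 h APF. All animals carried the same labelled background, w1118/y,w, hs-FLP; + ; +, in which the flippase gene hs-FLP sits behind a heat shock promoter, and no treatment or mutant was compared. Each library therefore pools the whole wing, all cell types included, and a change can come from fewer cells of a type or from less RNA per cell, which cannot be told apart.

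Wing cells divide asynchronously in the larva, pause in G2 early in the prepupa, pass through one last and partly synchronous cell cycle, and then leave the cycle before they build hairs, veins and cuticle. In dividing cells, cyclins and their kinases set the order of events, and the E2F and Dp factors switch on the genes for DNA synthesis. Origins are licensed and replicated in S phase, and condensins, kinetochores and the spindle then separate the copies in mitosis. Nuclear pores and chromatin are in part reassembled at each division.

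Reads on genes numbered 1659208 to 6900002 per library, so that 3 counts corresponded to 0.435 to 1.81 CPM. The shallowest library was the second at 24 h. Together the 229 genes took 2.8 and 2.89% of the reads on genes in the L3 libraries, 2.3 and 2.47% in those of 18 h, and 0.262 to 0.887% in the 8 others. The wing genes nub, vg, rn, ap, sd and Dll summed to 1840.4 and 1657 CPM at L3, 781 and 844 CPM at 6 h, 2381 and 2306 CPM at 18 h, 2366 and 2119 CPM at 24 h, 938 and 1066 CPM at 36 h and 529 and 547 CPM at 44 h. This sum was thus lower at 6 h and from 36 h on, stages where the members were low too, and its part in their levels was not tested. The largest part of the sum was sd, and single markers differed. Levels of rn at 6 h, and of nub and Dll at 36 h, overlapped those at L3, while the other markers lay below L3 at these stages. Of 41 marker genes for wing epithelium, myoblasts, hemocytes, trachea, neurons and glia, fat body and salivary gland found in the tables, 0 were members. By group in this order, with fat body and gland as 1 group, only 6, 3, 2, 4, 1 and 0 reached 5 CPM at both L3 and 18 h. The others could not be members. Of all genes at that level 3.49% were members, and nothing is read from the 0. The 5 tracheal markers (trh, btl, verm, serp and pio) summed to 18998 and 5561 CPM at 6 h against 381 to 1052 CPM in the other libraries, almost all of it from verm and serp, which encode chitin deacetylases. The 6 myoblast markers summed to 113 to 186 CPM in the L3, 6 h and 18 h libraries and to 46 to 69.2 CPM from 24 h on. Most of the 18 h sum came from Mef2, with 119 and 94.6 CPM at 18 h against 35.5 and 46.5 CPM at L3. The others (twi, Him, zfh1, htl and stumps) were each lower in both 18 h libraries than in both at L3. The 12 fat body and salivary gland markers summed to 9.29 and 13.4 CPM at L3 and 106 to 587 CPM later, with the glue gene Sgs1 at 0 in all 12. Hemocyte markers (7) summed to 46.8 to 107 CPM and neuron and glia markers (5) to 36.8 to 195 CPM. The part of these other cells in the levels of the members was not tested either.

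The pattern held in single libraries as well as in the stage means that chose the genes. For 226 of the 229 members (98.7%) each of the 4 libraries at L3 and 18 h lay above all 8 other libraries, whereas this was so for 11.3% of the genes with a count; since the rule used these same values, the count is a description. The exceptions were Lcp1, roX1 and CG11370. The smaller of the L3 and 18 h means was a median of 2.53 times the highest of the 4 other stage means, and at least 3 times for 62 members, 4 times for 25 and 5 times for 9, up to 7.62 times for CG31125. L3 was the highest stage for 173 members and 18 h for 56. Among the low stages the highest was 24 h for 127 members and 6 h for 95, and only 7 had it at 36 or 44 h.

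Scaling mattered to the size of the set. TMM factors, which correct for a few abundant genes filling a library, lay between 0.70 at 44 h and 1.37 at L3, and with them 123 genes met the rule, all of them among the 229, 48 of the 81 on the cell cycle list described below and 75 of the 148 off it. Just inside the threshold were DppIII (2.00 times), CG30105 (2.00 times), Pbp95 (2.00 times), WRNexo (2.01 times) and CG4880 (2.01 times). Just outside were neb, Gnf1, Sld5, CG12179 and Bap55, between 1.99 and 1.996 times. Of these, Gnf1 (the large clamp loader subunit), Sld5 (a GINS subunit) and CG12179 are on the cell cycle list.

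**Figure D1:**
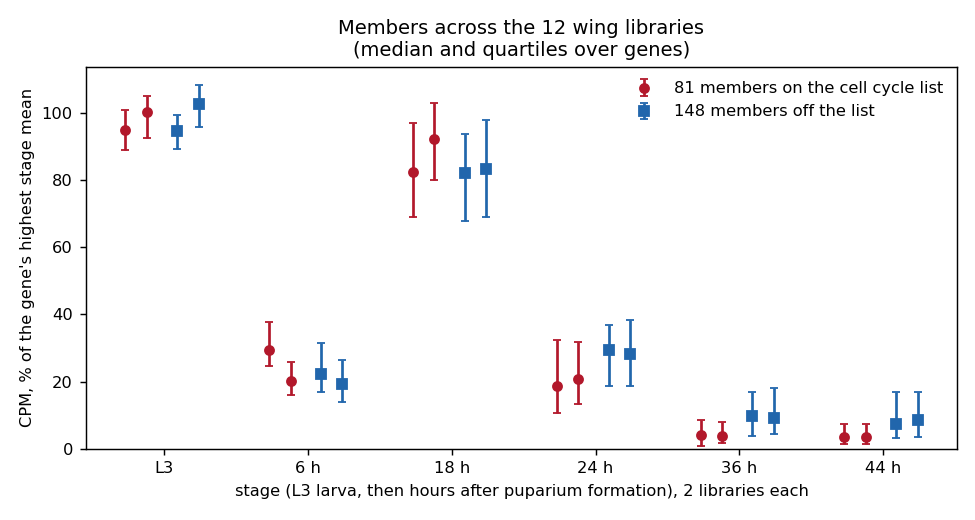
Level of the members in each of the 12 libraries, in % of the highest stage mean of the gene (y axis), by stage (x axis, L3 then hours APF, 2 libraries each). Points are medians over genes and bars are quartiles, for the 81 members on the cell cycle list (red circles) and the 148 off it (blue squares). At 24 h the medians were 18.8 and 20.8% on the list and 29.3 and 28.3% off it.

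The list of cell cycle genes was written for this comparison from textbook knowledge, but with earlier results of these data known. Shares of it are therefore descriptions. It held 289 genes of the tables, of which 266 reached 5 CPM at both L3 and 18 h. Of these 266, 81 were members (30.5%), against 229 of all 6564 genes at that level (3.49%). The replication fork had the largest share, 22 of 36 genes (61.1%), followed by kinetochores and the spindle checkpoint with 11 of 27, the spindle with 15 of 39, cohesion and condensation with 6 of 21, and DNA damage and repair with 11 of 40. Fewer came from licensing (5 of 24), cyclins, Cdks and E2F (5 of 28), the anaphase promoting complex (2 of 12), cytokinesis (2 of 12), centrosomes (2 of 16) and mitotic kinases (1 of 12). These shares are lowered by the genes set aside by name, which stay in the totals. With them, 91 of the 266 met the rule. The counts were then 15 of 27 for kinetochores and checkpoint, 7 of 24 for licensing and 6 of 28 for cyclins, Cdks and E2F. Mitotic kinases and the anaphase promoting complex each had 3 of 12. 1 gene, tos, counts under both the fork and DNA damage.

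Most of the list did not follow the pattern. Of the 198 list genes that missed the rule, 110 were under 2 times at both L3 and 18 h, and for 68 of these the stage in the way was 24 h. Another 56 were under 2 times at 18 h alone, 47 of them because of 6 h. The Mcm helicase genes show the last form. Mcm2 averaged 90.2 CPM at L3, 34.1 at 6 h, 59 at 18 h and 6.74 at 24 h, and Mcm3 averaged 62.4, 20.9, 24.6 and 5.09 CPM at the same stages, so that 18 h stood only 1.73 and 1.18 times above 6 h. Mcm6, Mcm10 and dpa (Mcm4) missed in the same way, whereas Mcm5 and Mcm7 met the rule. Bub3 and ida, also set aside by name, missed it because of the 24 h mean, and CycA because of both 6 and 24 h: CycA averaged 242 CPM at L3, 136 CPM at 6 h, 309 CPM at 18 h and 157 CPM at 24 h.

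Of the regulators of the cycle, 8 were members. Dp, the partner of E2F, had 221 and 229 CPM at L3, 99.6 and 75.2 CPM at 6 h, 229 and 222 CPM at 18 h, 104 and 108 CPM at 24 h, 62.8 and 68.1 CPM at 36 h and 53.9 and 57.7 CPM at 44 h. Its 4 high libraries lay within a narrow range, and 24 h was the highest of the low stages.

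Cks30A, the small subunit that binds Cdk1, had 101 and 95.2 CPM at L3, 15.2 and 10.1 CPM at 6 h, 67.4 and 74.7 CPM at 18 h, 6.55 and 6.63 CPM at 24 h, 0.263 and 0.496 CPM at 36 h and 0 and 0.725 CPM at 44 h, one of the deepest patterns of the set. cdc2c, the kinase Cdk2, had 71.8 and 79.7 CPM at L3, 43.2 and 14.9 CPM at 6 h, 71 and 98.2 CPM at 18 h, 29 and 27.1 CPM at 24 h, 3.94 and 3.96 CPM at 36 h and 2.66 and 3.04 CPM at 44 h, with the replicates at 6 h far apart. Rca1, which restrains the anaphase promoting complex, had 39.1 and 33.6 CPM at L3, 17.3 and 17.3 CPM at 6 h, 37.6 and 35.5 CPM at 18 h, 17.6 and 16.3 CPM at 24 h, 8.67 and 8.67 CPM at 36 h and 10.5 and 10.4 CPM at 44 h. The others were the retinoblastoma family gene Rbf2, the kinase Cdk7, the APC subunit APC4 and bora, an activator of Aurora A.

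DNA replication was the largest role, with 27 members. mus209 encodes PCNA, the sliding clamp of the replication fork, and had 288 and 295 CPM at L3, 90.7 and 59.1 CPM at 6 h, 246 and 348 CPM at 18 h, 23.2 and 27.1 CPM at 24 h, 1.58 and 0.248 CPM at 36 h and 1.66 and 3.77 CPM at 44 h. Its 24 h libraries lay below those at 6 h, and by 36 h little was left. Top2, the topoisomerase that untangles DNA copies, had 452 and 509 CPM at L3, 109 and 60 CPM at 6 h, 539.6 and 418 CPM at 18 h, 193 and 186 CPM at 24 h, 35.2 and 35.4 CPM at 36 h and 37 and 37.2 CPM at 44 h, with 24 h above 6 h. dUTPase, which keeps uracil out of DNA, had 347 and 325 CPM at L3, 204 and 255 CPM at 18 h and 6.31 and 6.67 CPM at 44 h. Caf1, a histone chaperone subunit shared by several chromatin complexes, kept 34.9 and 28.5 CPM at 36 h. The rest covered the polymerases alpha, delta and epsilon with both primase subunits, the clamp loader (RfC3, RfC4, RfC38 and CG8142), all 3 subunits of the single-strand binding protein RPA, the origin subunits Orc2 and Orc4, the GINS subunits Psf2 and Psf3, the licensing inhibitor geminin, RnrL (ribonucleotide reductase), DNA-ligI, Fen1, tos (exonuclease 1), Caf1-105 and CG10336.

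Chromosome and kinetochore genes gave 17 members, 4 of them condensin subunits. SMC2 had 203 and 163 CPM at L3, 30.7 and 26.8 CPM at 6 h, 131 and 156 CPM at 18 h, 28.1 and 32.5 CPM at 24 h, 3.15 and 6.94 CPM at 36 h and 7.97 and 9.57 CPM at 44 h, and glu (SMC4), Cap-G and CAP-D2 followed, each at 86.5 CPM or more in every L3 and 18 h library. Cap-G was the shallowest, with 66.4 and 38.5 CPM at 6 h and 48.5 and 53 CPM at 24 h. The chromosomal passenger genes ial (Aurora B) and Det (the survivin homolog) were both members. ial had 82.9 and 78.9 CPM at L3, 18.9 and 9.84 CPM at 6 h, 73.6 and 105 CPM at 18 h and 5.06 and 9.04 CPM at 24 h, and its 8 low libraries reached at most 18.9 CPM. The others were BubR1, rod and Spindly of the checkpoint, Spc105R, Ndc80, Nuf2 and Kmn1 of the microtubule attachment complex, Cenp-C, mars, and thr and Sse, the fly separase pair.

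Spindle, centrosome and cytokinesis genes gave 19 members, with a median ratio of the lower high to the highest low stage of 3.24, the highest of the roles on the list. sti, the citron kinase of the cleavage furrow, had 107 and 115 CPM at L3, 20 and 13.7 CPM at 6 h, 165 and 135 CPM at 18 h, 10.6 and 9.64 CPM at 24 h, 0.788 and 0 CPM at 36 h and 0.664 and 1.59 CPM at 44 h. Klp61F, the kinesin that pushes spindle poles apart, had 117 and 134 CPM at L3, 39.5 and 18.5 CPM at 6 h, 155 and 164 CPM at 18 h, 23.7 and 30.7 CPM at 24 h, 0.263 and 0.248 CPM at 36 h and 0.166 and 1.3 CPM at 44 h. Both were at 3 counts or fewer in each library at 36 h. pav and tum, the 2 subunits of centralspindlin, had alike profiles: pav had 108 and 123 CPM at L3, 43.6 and 24.2 CPM at 6 h, 130.1 and 114 CPM at 18 h and 10.7 and 9.04 CPM at 24 h, and tum had 95.4 and 100.4 CPM at L3, 19.7 and 9.84 CPM at 6 h, 79.1 and 77 CPM at 18 h and 7.29 and 4.22 CPM at 24 h. feo, which bundles the midzone, had a weaker 18 h level, 59.8 and 67.4 CPM at 18 h against 161 and 154 CPM at L3. The augmin complex, which nucleates microtubules within the spindle, gave 6 members (dgt3, dgt4, dgt5, dgt6, msd1 and msd5), and Klp67A, asp, mud, mei-38, sub, pbl, Sas-4 and asl complete the role. The DNA damage genes numbered 10 besides tos and included the endonuclease gene Rrp1, with 203 and 253 CPM at L3, 39.5 and 39.7 CPM at 6 h, 256 and 245 CPM at 18 h, 55.2 and 49.4 CPM at 24 h, 11.6 and 11.4 CPM at 36 h and 4.32 and 6.09 CPM at 44 h. The others were the kinase tefu (ATM), rad50, XRCC1, Fancd2, the mismatch gene Msh6, okr (Rad54), mus308 (polymerase theta), the nuclease gene mus81 and agt.

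The other 148 members were off the list, and 101 of them have a role that could be named. Their ratios were smaller, with medians of 2.37 and 2.83 off and on the list. At a threshold of 3 times, 26 of the 148 and 36 of the 81 remained. CPM is not divided by gene length, so levels are compared within genes and not between them. The 20 off-list genes with the largest ratios, between 3.36 and 7.62, fell into most of the roles: 7 have no role given (CG31125, CG8478, CG13044, msb1l, CG11120, CG10445 and CG11125), 5 act in division (sip2, Poc1, ball, nesd and dah) and 3 are surface, signalling or cuticle genes (Lcp1 and Cpr49Ag among them). The remaining 5 were RanGap, Nup75, Jheh2, CG14814 and Ssrp.

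Nuclear pore and transport genes gave 19 members, 15 of them from the 38 genes of a list for this role (39.5%). That list, too, was written with earlier results of these data known. Pen, an importin alpha that carries proteins into the nucleus, had 1282 and 1133 CPM at L3, 196 and 159 CPM at 6 h, 918 and 1217 CPM at 18 h, 301 and 375 CPM at 24 h, 24.4 and 36.7 CPM at 36 h and 16.3 and 21.7 CPM at 44 h. Cas (Cse1), which returns importin alpha to the cytoplasm, had 194 and 218 CPM at L3, 39.3 and 28.9 CPM at 6 h, 214 and 193 CPM at 18 h and 83.8 and 88.6 CPM at 24 h. RanGap and Bj1 (Rcc1), which set both ends of the Ran gradient, were both members. The pore itself was represented by gp210 and CG5857 (Ndc1) of its membrane ring, CG11875 (Nup37), Nup43, Nup75, Nup133 and Nup160 of the outer ring, CG6540 (Nup35), CG11092 (Nup93-1), CG7262 (Nup93-2) and Nup154 of the inner ring, the central Nup62, and Nup50 and Rae1. gp210 had 242 and 290.0 CPM at L3, 19.7 and 16.4 CPM at 6 h, 146 and 138 CPM at 18 h, 62.1 and 59.1 CPM at 24 h, 11 and 9.41 CPM at 36 h and 5.64 and 8.12 CPM at 44 h, with both 24 h libraries above both at 6 h.

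Chromatin and transcription gave 20 members. Of the 52 genes of a list for histones and chromatin that reached 5 CPM at both L3 and 18 h, 7 were members (13.5%). The share was 3.49% of all genes at that level. Roles of members outside the lists were assigned after they were seen, so no share is given for them. HmgD, an HMG-box protein that bends DNA, had 2434 and 2431 CPM at L3, 502 and 706 CPM at 6 h, 1914 and 2325 CPM at 18 h, 887 and 1042 CPM at 24 h, 349 and 285 CPM at 36 h and 149 and 136 CPM at 44 h. D1, which binds AT-rich satellite DNA, had 2018 and 1633 CPM at L3, 371 and 478 CPM at 6 h, 1513 and 1968 CPM at 18 h, 701 and 881 CPM at 24 h, 268 and 456 CPM at 36 h and 142 and 167 CPM at 44 h. The histone variant gene His2Av had 928 and 869 CPM at L3, 188 and 213 CPM at 6 h, 797 and 961 CPM at 18 h, 348 and 407 CPM at 24 h, 75.4 and 66.4 CPM at 36 h and 54.1 and 61.7 CPM at 44 h. In all 3 genes both 24 h libraries lay above both at 6 h. Both subunits of FACT, the complex that opens nucleosomes for polymerases, were members: Ssrp had 188 and 259.9 CPM at 18 h and 500.3 and 398 CPM at L3, and dre4 (Spt16) had 251 and 201 CPM at 18 h and 264 and 301 CPM at L3. pont and rept, paired ATPases of chromatin remodellers, the methyltransferase genes Art1 and Art4 and the deacetylase gene Rpd3 were members too. roX1, a noncoding RNA of the male X chromosome, met the rule on means only, with 256 and 12.1 CPM at L3, 48.5 and 22.7 CPM at 6 h, 135 and 60.1 CPM at 18 h and 20.7 and 64.5 CPM at 24 h.

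RNA processing and ribosome assembly gave 20 members, with a median ratio of 2.20 and a highest ratio of 3.28. Hel25E, the helicase of mRNA export, had 523 and 592 CPM at L3, 156 and 132 CPM at 6 h, 642 and 629 CPM at 18 h, 259.7 and 275 CPM at 24 h, 103 and 94.6 CPM at 36 h and 95.1 and 104 CPM at 44 h. La, which binds the ends of new polymerase III transcripts, had 273 and 292 CPM at L3, 54.9 and 46.5 CPM at 6 h, 96.2 and 109 CPM at 18 h, 41.4 and 53 CPM at 24 h, 31.3 and 27.7 CPM at 36 h and 25.4 and 28.8 CPM at 44 h. The splicing factors Prp19 and Srp54, the exosome subunit Rrp45, the polymerase III subunit RpIII128, the integrator nuclease IntS11, and armi and squ of the piRNA pathway were among the rest. Of the 51 genes of a list for ribosome biogenesis, each at 5 CPM or more at L3 and 18 h, 0 were members. Of the 34 genes of a list for splicing and mRNA at that level, 2 were members (5.88%), near the 3.49% of all genes.

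Chaperones, enzymes and mitochondrial genes gave 17. Hsp83, the fly Hsp90, had 2511 and 3077 CPM at L3, 223 and 268 CPM at 6 h, 1541 and 1365 CPM at 18 h, 532 and 592 CPM at 24 h, 159 and 181 CPM at 36 h and 218 and 231 CPM at 44 h. Its 18 h libraries stood between L3 and 24 h without overlap. Uba2, a subunit of the enzyme that starts SUMO transfer, had 401 and 420.2 CPM at L3, 82.7 and 77 CPM at 6 h, 435 and 458 CPM at 18 h, 173 and 193 CPM at 24 h, 42.8 and 56.2 CPM at 36 h and 41.8 and 44.3 CPM at 44 h. SelD (selenophosphate synthetase) and the selenoprotein gene BthD were in this group, as were Jheh2 (juvenile hormone epoxide hydrolase), park (the fly parkin) and the mitochondrial DNA helicase CG5924.

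A further 17 members act in division or in DNA upkeep although they were not on the list. The 7 division genes were sip2 (named for binding septins), nesd and dah of cytokinesis, the histone kinase ball, the centriole gene Poc1, pon, which partners numb, and sofe. sip2 had 134 and 144 CPM at L3, 26.3 and 15.8 CPM at 6 h, 139.5 and 147 CPM at 18 h, 20.4 and 28.9 CPM at 24 h, 0.788 and 1.24 CPM at 36 h and 0.83 and 1.16 CPM at 44 h. It was among the deeper patterns, with a ratio of 5.63. The 10 repair and telomere genes were pic (DDB1), the telomere cap gene HipHop, ptip, CG1218 (Hpf1), WRNexo, CG14814 (Gcna), Gen, mus301, CG2990 (Dna2) and CG11329 (Nse1). Counted with the 81 of the list, they bring the members known to act in the cell cycle or in DNA upkeep to 98 of 229; these 17 were added after the members had been seen.

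The 8 members with roles in signalling, cuticle or the cell surface were varied. ana, a secreted glycoprotein known to hold neuroblasts quiescent, had 67.4 and 80.2 CPM at L3, 13.8 and 23.6 CPM at 6 h, 43.3 and 39.5 CPM at 18 h, 4.02 and 6.03 CPM at 24 h, 2.1 and 2.73 CPM at 36 h and 3.98 and 4.64 CPM at 44 h. The cuticle protein gene Cpr49Ag had 43.5 and 55.6 CPM at L3, 12.8 and 13.7 CPM at 6 h, 50.3 and 71.7 CPM at 18 h, 15.5 and 5.42 CPM at 24 h, 6.3 and 2.48 CPM at 36 h and 0 and 0 CPM at 44 h. Lcp1, a larval cuticle protein gene, rested on the second library at L3 and at 18 h, with 1.03 and 10.3 CPM at L3, 0.389 and 0.298 CPM at 6 h, 1.47 and 16.9 CPM at 18 h and 0.446 and 1.21 CPM at 24 h. Others were CG32791 (DIP-alpha), the photoreceptor gene chp and ETH, a peptide hormone gene, the last pair at 12.6 CPM or less in every library.

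No role was given to 47 members, of which 43 are named only by number in the current annotation. CG31125 had the highest ratio of all members, with 27.4 and 31.9 CPM at L3, 3.5 and 3.28 CPM at 6 h, 29 and 33.5 CPM at 18 h, 4.17 and 3.62 CPM at 24 h, 0.788 and 1.24 CPM at 36 h and 0.83 and 1.45 CPM at 44 h. CG8478 (6.03 times), CG13044 (5.25 times), msb1l (4.91 times) and CG11120 (4.25 times) came next in this group. CG13044 had 39.7 and 31 CPM at L3, 0.195 and 0.298 CPM at 6 h, 36.1 and 35.2 CPM at 18 h, 6.85 and 6.63 CPM at 24 h, 1.31 and 1.98 CPM at 36 h and 0.664 and 1.01 CPM at 44 h. It was at 1 count in each library at 6 h. CG1943 had 451 and 411 CPM at L3, 114 and 136 CPM at 6 h, 439 and 546 CPM at 18 h, 124 and 141 CPM at 24 h, 191 and 196 CPM at 36 h and 190.4 and 171 CPM at 44 h, one of the 5 members whose highest low stage was 36 h.

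**Figure D2:**
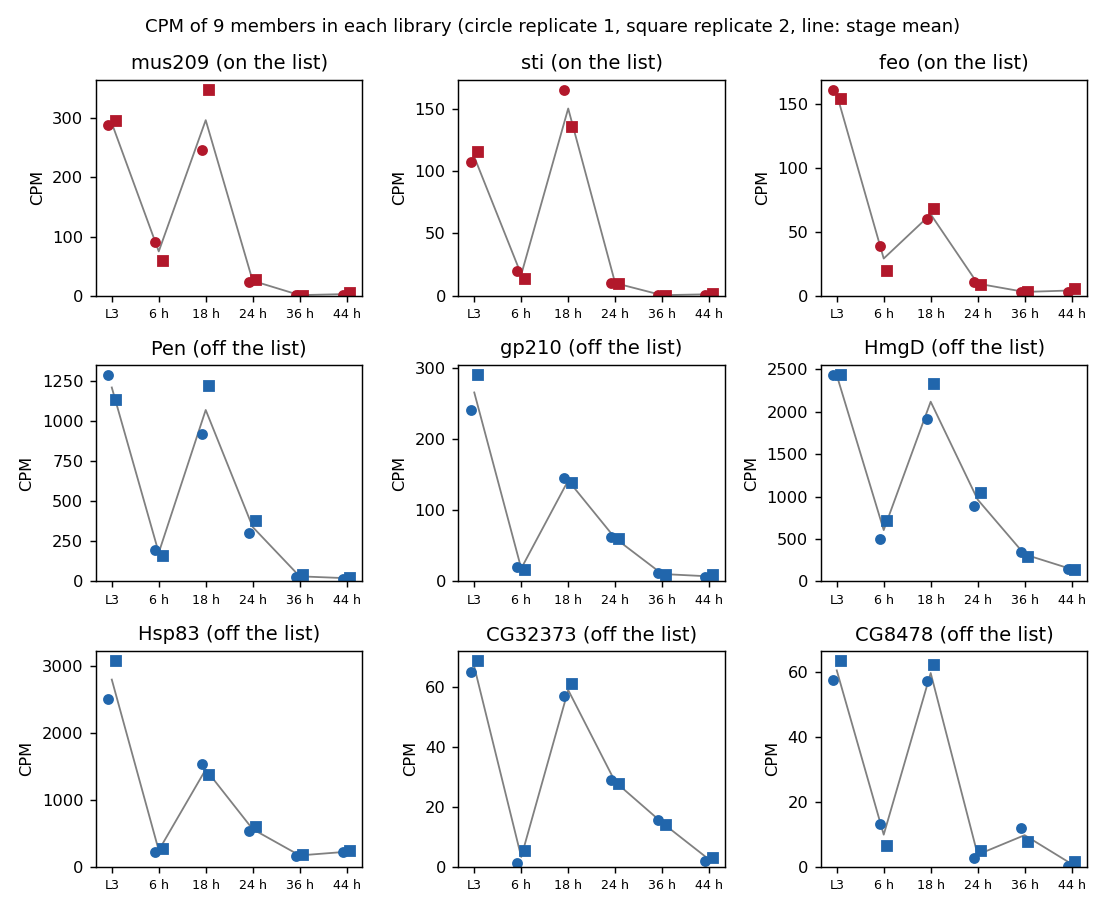
CPM (y axes, linear from 0) of 9 members in each library, by stage (x axes, L3 then hours APF). Circles are replicate 1, squares replicate 2 and lines join stage means; red marks genes on the cell cycle list and blue genes off it. feo and Hsp83 show a lower 18 h than L3 level, gp210 and CG32373 a 24 h level above 6 h, and CG8478 a 36 h level above 24 h.

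The rule fixed that L3 and 18 h were both high but not which was higher, and the next comparison gives the members' 18 h level relative to the larval one. Genes that stayed low at 18 h could not be members (56 list genes missed the rule at 18 h alone), so the number of members lower at 18 h is in part set by their choice, and nothing is read from its share against the background. The edgeR quasi-likelihood test over all 12 libraries was used, with Benjamini-Hochberg adjustment over 8469 genes, and a change was called at an adjusted p under 0.05 and at least 2-fold. All 229 members entered every test, as their 5 CPM at L3 and 18 h ensures. At 18 h, 0 members were higher than at L3 (background 9.41% of all genes tested) and 11 were lower (4.8% of the members, against a background of 8.67%). At an unadjusted p under 0.05, 3 were higher and 31 lower. DESeq2 called 0 higher and 7 lower. The median log2 fold change was -0.12 over the members and 0.05 over all genes tested, -0.03 for members on the list and -0.15 for those off it.

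The 11 lower genes were 1 on the list, feo, and 10 off it. La had 96.2 and 109 CPM at 18 h and 273 and 292 CPM at L3 (log2 fold change -1.38 ± 0.20 SE, edgeR adjusted p = 0.00042). CG2982, annotated as the histone demethylase NO66, had 28.3 and 27.5 CPM at 18 h and 73.7 and 84.9 CPM at L3 (log2 fold change -1.42 ± 0.28 SE, edgeR adjusted p = 0.0035). feo had 59.8 and 67.4 CPM at 18 h and 161 and 154 CPM at L3 (log2 fold change -1.23 ± 0.31 SE, edgeR adjusted p = 0.013). In each of the 11 both 18 h libraries lay below both at L3. RNA processing and ribosome assembly gave 4 of them (La, CG14230, CG9107 and CG13096), with fold changes of -1.02 to -1.38. Chaperones and enzymes gave 3, Jheh2 (-1.10), Ugt86Di (-1.11) and CG5924 (-1.20), and the others were CG11875 (Nup37) and CG5757. Of these, CG14230, CG5924 and Jheh2 overlap a gene on the other strand. By role the medians ran from -0.34 for nuclear pore genes and -0.33 for chaperones and enzymes to 0.24 for the 8 signalling, cuticle and surface genes, with 0.08 for spindle genes. Only 2 of the 19 pore genes and 1 of the 17 chaperone and enzyme genes had a positive value, against 12 of 19 spindle genes. Pore list genes that are not members had a median of -0.44, with 6 of 23 positive and 6 lower. The low values were thus not particular to the pore members. The 51 ribosome biogenesis genes, 0 of them members, had a median of -1.22, with 38 lower at 18 h; genes that low at 18 h are ones the rule tends to leave out.

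The count of lower members fell when a library was left out. Since this leaves 1 library at the stage, the fall does not show that the calls rested on that library. Without the first L3 library 2 of the members were lower, CG2982 and La, and 1 was higher, roX1; without the first 18 h library the same pair was lower. With a test against a 2-fold change (glmTreat) 0 passed.

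**Figure D3:**
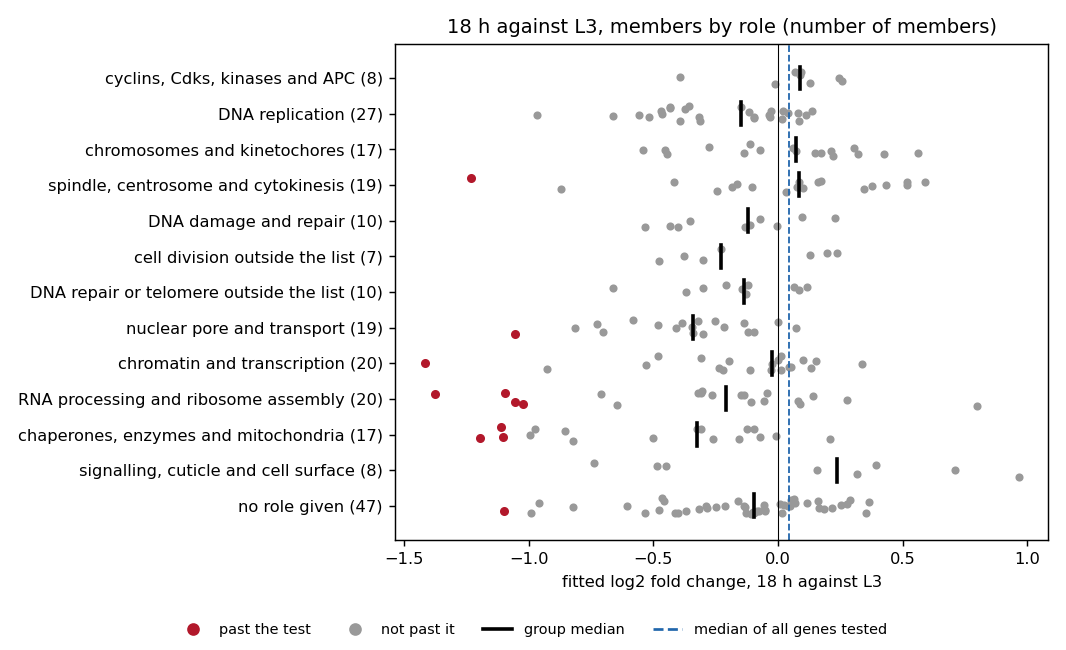
Fitted log2 fold change at 18 h against L3 (x axis) for each of the 229 members, by role (rows, with the number of members). Red points passed the test, black bars are group medians and the dashed line is the median of all genes tested, 0.05. All 11 red points lie at negative values, 4 of them in RNA processing and ribosome assembly.

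Both 6 h and 24 h are arrests, the first a pause and the second the final exit, and the rule bounded both stages from above without fixing their order. Many of the replication, spindle and kinetochore members were lower at 24 h than at 6 h, whereas pore, chromatin and RNA members had medians close to 0 with TMM factors. Of the 229, 49 were lower at 24 h (21.4%, against a background of 15.7%) and 9 were higher (3.93%, against a background of 12.1%). Since genes high at 6 or 24 h relative to L3 and 18 h were left out, these shares depend in part on the rule. Nothing is read from them against the background. On the list 30 of 81 were lower (37%) and 1 was higher, and off it 19 of 148 were lower (12.8%) and 8 were higher. Not all roles on the list showed this. Among cyclins, Cdks, kinases and APC 1 of 8 was lower and 1 higher (median -0.34). In DNA damage and repair 1 of 10 was lower and 0 were higher (median -0.31). Of the 19 lower off the list, 11 had no role given. The medians were -0.78 on the list, -0.10 off it and -0.03 over all genes tested. The 192 list genes tested that are not members had 51 lower and 13 higher, with a median of -0.40. The difference between members on and off the list was not tested, since the members were chosen from these libraries.

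Among replication genes 12 of 27 were lower. mus209 had 23.2 and 27.1 CPM at 24 h and 90.7 and 59.1 CPM at 6 h (log2 fold change -2.04 ± 0.36 SE, edgeR adjusted p = 0.00092). RnrL had 16.8 and 18.7 CPM at 24 h and 60.5 and 43.3 CPM at 6 h (log2 fold change -2.01 ± 0.25 SE, edgeR adjusted p = 6.9e-05). Neither gene's stages overlapped. Orc2 had 0.446 and 0.603 CPM at 24 h and 7.59 and 2.98 CPM at 6 h (12.1-fold lower, counting interval 4.43 to 46.1, edgeR adjusted p = 0.00046), with only 4 reads at 24 h. This ratio, like all ratios with a counting interval and all bounds below, is without TMM factors, unlike the p-value. Pole2, the second subunit of polymerase epsilon, had 3 reads at 24 h and 42 at 6 h, a ratio of 13.8 with a counting interval of 4.41 to 69.7. Top2 was not among them, with 193 and 186 CPM at 24 h and 109 and 60 CPM at 6 h (log2 fold change 0.72).

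Among spindle and cytokinesis genes 9 of 19 were lower, and among chromosome and kinetochore genes 7 of 17. sub, a kinesin of the spindle midzone, had 1.79 and 1.81 CPM at 24 h and 13.4 and 9.25 CPM at 6 h (log2 fold change -3.09 ± 0.33 SE, edgeR adjusted p = 2.9e-05). pav had 10.7 and 9.04 CPM at 24 h and 43.6 and 24.2 CPM at 6 h (log2 fold change -2.19 ± 0.31 SE, edgeR adjusted p = 0.00017). mei-38, a spindle protein, had 0.744 and 0 CPM at 24 h and 5.45 and 4.18 CPM at 6 h (8.29-fold lower, counting interval 3.28 to 26.8, edgeR adjusted p = 0.00079). All 17 chromosome and kinetochore genes had a negative value, and edgeR called 0 of them higher, with 0 at an unadjusted p under 0.05 and 0 by DESeq2. The 7 division genes off the list had the lowest median of any role, -1.15, and 4 of them were lower. Outside division, BthD had 0.744 and 0.603 CPM at 24 h and 6.03 and 7.16 CPM at 6 h (9.05-fold lower, counting interval 3.9 to 25.7, edgeR adjusted p = 0.00021), ana had 4.02 and 6.03 CPM at 24 h and 13.8 and 23.6 CPM at 6 h (log2 fold change -2.42 ± 0.30 SE, edgeR adjusted p = 6e-05), and WRNexo, the fly counterpart of the Werner exonuclease, had 2.23 and 4.22 CPM at 24 h and 20 and 15.5 CPM at 6 h (log2 fold change -3.12 ± 0.41 SE, edgeR adjusted p = 0.00014). Of the genes named here, sub, BthD, ana, WRNexo and Orc2 overlap a gene on the other strand.

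The 19 pore genes had a median of 0.02, the 20 chromatin genes -0.00439 and the 20 RNA genes 0.01. edgeR called 0 of these 59 lower. At an unadjusted p under 0.05, 1 pore, 3 chromatin and 2 RNA genes were lower, and DESeq2 called 0. The 23 pore list genes that are not members had a median of -0.01, with 0 lower and 1 higher. gp210 had 62.1 and 59.1 CPM at 24 h and 19.7 and 16.4 CPM at 6 h (log2 fold change 1.30 ± 0.21 SE, edgeR adjusted p = 0.00048). armi, a helicase of the piRNA pathway, had 34.1 and 24.1 CPM at 24 h and 9.34 and 6.56 CPM at 6 h (log2 fold change 1.45 ± 0.27 SE, edgeR adjusted p = 0.0013). In both genes the 24 h libraries lay above those at 6 h. The other 7 that rose were APC4, Ugt86Di and 5 genes with no role given. CG32373 had 28.9 and 27.7 CPM at 24 h and 1.17 and 5.37 CPM at 6 h (log2 fold change 2.82 ± 0.42 SE, edgeR adjusted p = 0.00024). CG13044 had 57 reads at 24 h and 2 at 6 h, a ratio of 28.9 with a counting interval of 7.64 to 244. CG11370 had 44 and 4 reads at 24 h and 0 in both libraries at 6 h, at least 6.06-fold higher against a floor of 3 counts in each library, and its L3 and 18 h replicates also lay far apart.

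Scaling moved this comparison most. With library size alone the median of all genes rose by 0.43 on the log2 scale, the median over the members was 0.14 in place of -0.30, and thus of the other sign, beside 0.40 for all genes, and the calls became 27 higher and 34 lower. Single libraries also moved the counts: 30 were lower and 15 higher without the first 6 h library, and 24 were lower without the first 24 h library.

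**Figure D4:**
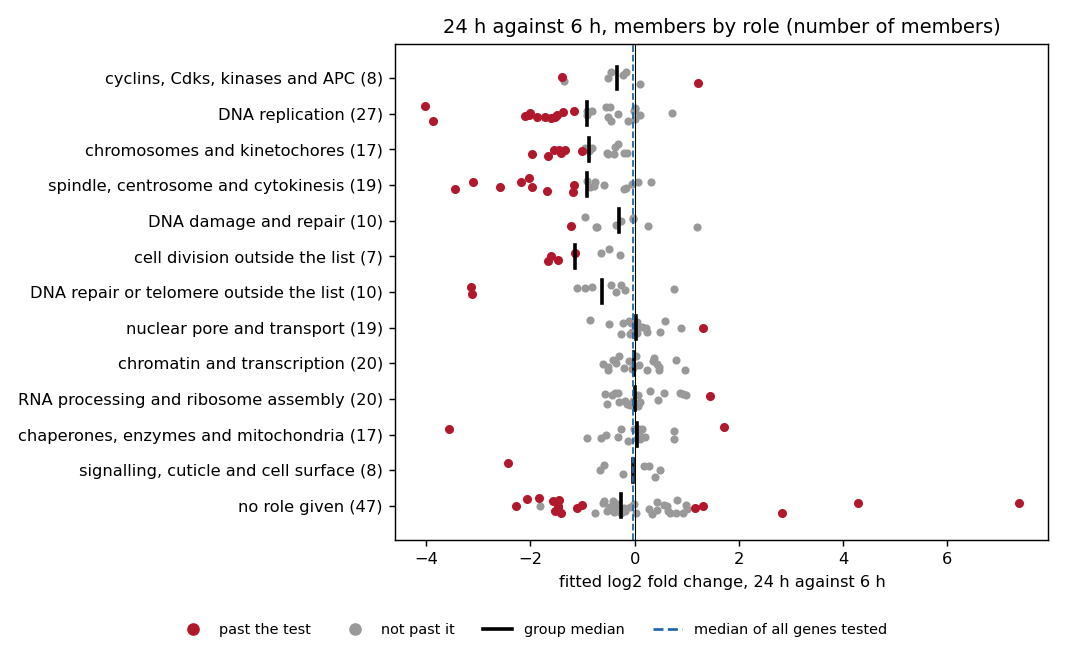
Fitted log2 fold change at 24 h against 6 h (x axis) for each of the 229 members, by role (rows, with the number of members). Red points passed the test, black bars are group medians and the dashed line is the median of all genes tested, all with TMM factors. Medians lie between -0.91 and -0.88 for replication, kinetochore and spindle genes and between -0.00439 and 0.02 for pore, chromatin and RNA genes.

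From 24 to 36 h, when cells have left the cycle and begin to differentiate, every role had members that were lower at 36 h. The summed wing markers were also lower at 36 h than at 24 h, as given above, and their part in this was not tested. In all 131 of 229 were lower (57.2%, against a background of 10.1%) and 2 were higher (0.873%, against a background of 15.3%). Genes high at 24 or 36 h relative to L3 and 18 h could not be members. Both counts are therefore in part set by the choice of members, and nothing is read from their shares against the background. On the list 60 of 81 were lower and off it 71 of 148. The medians were -1.43 over the members, -1.91 on the list, -1.12 off it and -0.04 over all genes tested. In 9 members a stage was at 0 in both libraries; with these at their bounds the medians on and off the list were -1.72 and -1.06. The share lower was 16 of 19 for spindle genes, 15 of 17 for chromosome and kinetochore genes, 22 of 27 for replication genes and 6 of 7 for division genes off the list. With library size alone the median over the members was -1.82, beside -0.44 for all genes. The 192 list genes tested that are not members had 62 lower and 6 higher, with a median of -0.62. The share lower was 11 of 19 for pore genes, 8 of 17 for chaperones and enzymes, 8 of 20 for chromatin genes and 6 of 20 for RNA genes. It was 4 of 10 and 7 of 10 for DNA damage and repair on and off the list, 3 of 8 for cyclins, kinases and APC, 3 of 8 for signalling, cuticle and surface genes, and 22 of 47 where no role was given.

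Klp61F had 0.263 and 0.248 CPM at 36 h, 1 read in each library, and 23.7 and 30.7 CPM at 24 h, a ratio of 98.3 with a counting interval of 26.9 to 817. asp, which focuses spindle poles, had 0 reads at 36 h and 4.61 and 3.62 CPM at 24 h, at least 5.37-fold lower. Such bounds, against 3 counts in each library, were 4.21 for WRNexo, 3.03 for tos, 2.94 for CG43295 and 2.35 for sub, all at 0 at 36 h. mus209 had 1.58 and 0.248 CPM at 36 h and 23.2 and 27.1 CPM at 24 h (log2 fold change -4.37 ± 0.57 SE, edgeR adjusted p = 0.00013). Outside the list, sip2 had 0.788 and 1.24 CPM at 36 h and 20.4 and 28.9 CPM at 24 h (log2 fold change -4.13 ± 0.41 SE, edgeR adjusted p = 1.5e-05) and CG5235, with no role given, had 0.263 and 0.248 CPM at 36 h and 11.6 and 15.7 CPM at 24 h (48.7-fold lower, counting interval 13.1 to 407, edgeR adjusted p = 1.2e-05). Pen, the importin, had 24.4 and 36.7 CPM at 36 h and 301 and 375 CPM at 24 h (log2 fold change -3.07 ± 0.30 SE, edgeR adjusted p = 1.4e-05). The stages did not overlap in any of these, and Klp61F, WRNexo, tos, sub and sip2 overlap a gene on the other strand.

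The 2 genes that rose have no role given. CG8478 had 11.8 and 7.68 CPM at 36 h and 2.68 and 4.82 CPM at 24 h (log2 fold change 1.95 ± 0.52 SE, edgeR adjusted p = 0.013), and CG4951 had 17.6 and 19.6 CPM at 36 h and 11 and 10.2 CPM at 24 h (log2 fold change 1.17 ± 0.25 SE, edgeR adjusted p = 0.0036). Both overlap a gene on the other strand (MED6 and Gp93). CG4951 alone was called without the first 24 h library, and likewise without the first 36 h library. The 131 lower became 73 with a test against a 2-fold change.

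At 44 h the members had mixed directions. Against 36 h, 18 were higher (7.86%, against a background of 10.5%) and 14 were lower (6.11%, against a background of 9.38%). The rule capped both stages and so left out genes high at either, and nothing is read from these shares against the background. The medians were 0.38 over the members and 0.08 over all genes, with 163 of 229 members positive, and the median was 0.33 with the 10 members that were at 0 at a stage set to their bounds. With library size alone the medians were 0.05 and -0.26. Of the 18, Rpd3 had 98.3 and 91.9 CPM at 44 h and 61.2 and 57.2 CPM at 36 h (log2 fold change 1.02 ± 0.18 SE, edgeR adjusted p = 0.0013), ptip, a gene of DNA repair and histone methylation, had 18.4 and 18.8 CPM at 44 h and 6.3 and 4.21 CPM at 36 h (log2 fold change 2.16 ± 0.31 SE, edgeR adjusted p = 0.00033), and CG3226 had 30.4 and 37.5 CPM at 44 h and 11 and 11.9 CPM at 36 h (log2 fold change 1.90 ± 0.25 SE, edgeR adjusted p = 0.00014). tefu (ATM), Nup133 and CG5857 (Ndc1) were among the others, and Rpd3 overlaps a noncoding gene on the other strand. Several were called at very low levels. RnrL had 2.32 and 3.62 CPM at 44 h and 1.31 and 0.991 CPM at 36 h, and DNApol-alpha180 had 2.16 and 2.9 CPM at 44 h and 0.263 and 0.743 CPM at 36 h, while RnrL had 161 and 182 CPM at L3 and DNApol-alpha180 had 49.4 and 53.4. sub had 3 reads in each library at 44 h and 0 at 36 h, both at or under the floor, so that no fold is given.

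Of the 14 lower genes, Cpr49Ag had 0 reads at 44 h and 6.3 and 2.48 CPM at 36 h, at least 9.41-fold lower. dgt5 had 1.49 and 1.45 CPM at 44 h and 15 and 13.1 CPM at 36 h (log2 fold change -2.91 ± 0.33 SE, edgeR adjusted p = 5.4e-05). At 24 h it had 16.4 and 13.3 CPM, close to its 36 h level, whereas dgt3 had 1.31 and 1.24 CPM at 36 h and 10.1 and 12.1 CPM at 24 h. Art4, an arginine methyltransferase gene, had 4.65 and 6.38 CPM at 44 h and 18.9 and 17.3 CPM at 36 h (log2 fold change -1.37 ± 0.26 SE, edgeR adjusted p = 0.002). CG8478, CG7110, CG32373, CG8173 and CG4951, with no role given, and Rbf2, Nuf2, thr, mud, Fancd2 and Msh6 made up the rest; dgt5, Art4, CG8478, CG32373 and CG4951 overlap a gene on the other strand. With library size alone the calls became 7 higher and 20 lower; 11 were higher without the second 36 h library and 10 without the second 44 h library.

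**Figure D5:**
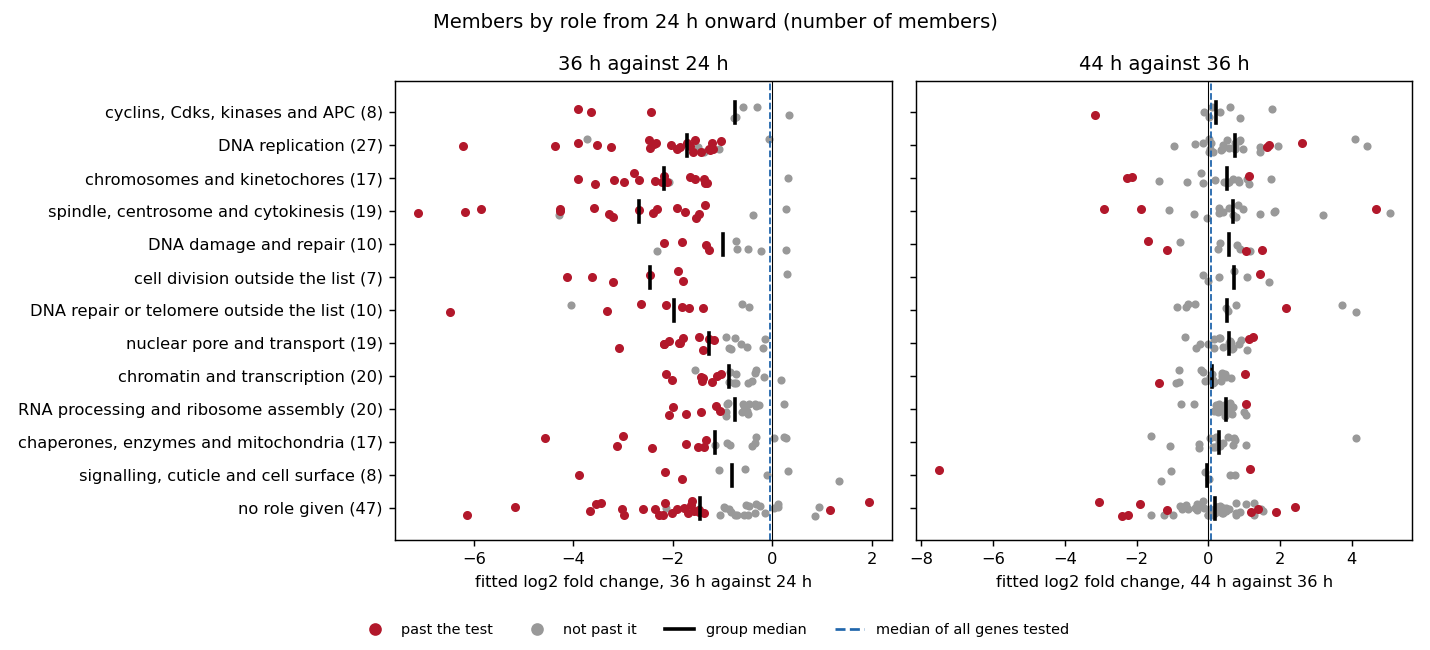
Fitted log2 fold change of each of the 229 members by role (rows, with the number of members), at 36 h against 24 h (left) and 44 h against 36 h (right). Red points passed the test, black bars are group medians and dashed lines are the medians of all genes tested. On the left 131 red points lie at negative and 2 at positive values, and on the right 14 and 18.

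The members lay on all major chromosome arms. By the BDGP6 annotation, 63 lay on arm 3R, 44 on 2L, 44 on 3L, 43 on 2R and 35 on X, which is 27.5, 19.2, 19.2, 18.8 and 15.3% of the members, where genes with a count had 24.2, 17.8, 19.7, 20.1 and 16%. For 14 members (6.11%) the nearest protein-coding gene on a side was a member too, a state found for 3.58% of genes with a count and a neighbour. These made 7 pairs: His2Av with ball, Ndc80 with BthD, msd1 with msd5, RfC38 with Nup160, Orc4 with ETH, feo with sofe, and WRNexo with Nup43. The gene bodies of msd1 and msd5, and of RfC38 and Nup160, overlap on opposite strands. In all, 111 members (48.5%) overlap a gene on the opposite strand. The share over all genes was not computed, so this is not given as a trait of the members. The kit was stranded, but the strand setting of the counting is not given in the sources used here, so reads of such a pair may not have been told apart.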

How the data were processed

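The libraries were made with a stranded mRNA kit from Trizol-extracted RNA of wings staged at 25°C. Per the labels and the study's methods, reads were aligned to dm3 with TopHat2 2.1.0 and SAMtools 1.2 was used. The deposited files hold whole-number counts per gene from HTSeq 0.6.1. Between 44.0 and 75.2% of all counts lay in rows that name no gene, and these were left out. The authors also deposited a table of RPKM values; it has 14 value columns, 2 of which match no sample here, and it was not used for any value.

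Members were found on CPM over the sum of gene rows. They and the gene lists were chosen with earlier results of these data known, and the roles of members off the cell cycle list were assigned after they were seen. Gene names and arms came from the BDGP6 annotation by gene ID, and as the files use dm3 no coordinates are given. Tests used edgeR 4.0.16 with TMM factors in 1 quasi-likelihood fit of all 12 libraries, over genes above 2 on the log2 CPM scale in at least 1 library, with a prior count of 2. Standard errors were approximated as the fold change divided by the root of F. p-values were adjusted by Benjamini-Hochberg, and DESeq2 1.42.0, other scalings, filters and left-out libraries were tried. p-values measure the spread between 2 replicates a stage, which the study calls independent. Intervals are exact and cover counting error only, and the floor is 3 counts in a library. Ratios with such intervals, and bounds, use the reads on genes without TMM factors, unlike the fitted fold changes and p-values. The scripts were tested on simulated data.

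Named genes were, for each role, up to 4 with the highest L3 and 18 h mean, up to 8 called members with the largest change in each direction of a comparison, the 5 members and 5 genes nearest the threshold, and the 20 off-list members with the largest ratio. Other names complete a group or complex and were chosen after their values were seen, and 2 members are counted but not reported by name here. The kit and counting leave overlapping genes uncertain.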

Additional observations from a re-analysis of the deposited data

How the results depend on the processing

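The number of genes that met the rule was 123 with TMM factors, 320 with the unassigned rows counted in library size, 1101 against the average of the 4 other stages, 698 at 1.5-fold and 62 at 3-fold; it was 254 at 1 CPM, 210 at 10 CPM and 206 to 260 with a library left out. The L3 and 18 h libraries lay above all others for 226 of the 229 members, and with TMM factors for 220 of the 229. At 18 h against L3, lower members numbered 0 with glmTreat and 7 with DESeq2, and 2 to 10 with a library left out, with 0 to 1 higher. At 24 h against 6 h, higher members numbered 27 with library size alone, 3 with glmTreat, 5 with the 4 libraries alone and 6 to 15 with a library left out, and lower members 16 with glmTreat, 31 with the 4 libraries alone and 24 to 62 with a library left out. At 36 h against 24 h, higher members numbered 1 with library size alone, 0 with glmTreat and 1 to 3 with a library left out, and lower members 73 with glmTreat and 103 to 115 with a library left out. At 44 h against 36 h, higher members numbered 7 with library size alone, 2 with glmTreat, 6 with the 4 libraries alone and 10 to 13 with a library left out, and lower members 8 with glmTreat, 9 with the 4 libraries alone and 10 to 13 with a library left out. The cause of these differences was not tested, except that glmTreat by construction asks for more than a 2-fold change.

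With the replicate number as a block the calls were 0 higher and 12 lower, 10 and 50, 2 and 129, and 18 and 14, in the order of the comparisons above. The numbers were only shared, since deviations of same-numbered libraries correlated at -0.16 to 0.20 over 15 pairs of stages. No called value changed sign. Library size alone shifted the log2 fold changes of single genes by a median of 0.43, -0.38 and -0.33 in the last 3 comparisons. Called under every alternative were 0 of 11, 14 of 58, 67 of 133 and 9 of 32 members. Promoter motifs, listed among the alternatives, were not run, as no sequence was used here. Levels of members from 36 h on often rest on fewer than 3 counts in a library.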
